A study of Mus musculus with 3 samples.

Results

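The genes described are 10 heat shock and chaperone genes, picked by name from 21938 protein-coding genes: Hspa1a, Hspa1b, Hsp90aa1, Hsph1, Dnajb1, Hspb1, Hspa5, Hspa8, Hsp90ab1 and Hspd1. All 10 were found in the annotation. By textbook class, 6 are inducible, transcribed strongly after heat or proteotoxic stress (Hspa1a, Hspa1b, Hsp90aa1, Hsph1, Dnajb1 and Hspb1), and 4 are constitutive (Hspa5, Hspa8, Hsp90ab1 and Hspd1).

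Marks at these genes were read from 3 region lists made by ChIP-seq, which sequences the DNA bound to an immunoprecipitated protein, in F123, a male line of mouse embryonic stem cells (mESCs) whose hybrid genome comes from S129/Jae and Cast mice. The cells were unstressed as far as the labels tell: they grew with LIF on inactivated mouse fibroblasts and were moved to gelatin without feeders for at least 2 passages before harvest. Each list had 1 library and no replicates: H3K27me3, the histone mark set by Polycomb proteins, and the RNA polymerase II forms Pol2-S5p and Pol2-S7p, which carry phosphate at serine 5 or at serine 7 of the repeats in its tail. The lists held 17342, 29222 and 22320 regions, respectively, and no read counts, so the depth behind a region is unknown and neither an error nor a test could be attached to any value below.

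Chaperones help other proteins to fold and to stay soluble. HSP70 proteins bind exposed stretches of unfolded clients in a cycle driven by ATP, J proteins deliver clients and start the ATP hydrolysis, HSP110 proteins release the bound nucleotide, HSP90 proteins act later on kinases and receptors, small heat shock proteins hold unfolding proteins without ATP, and chaperonins enclose them in a chamber. The inducible genes are the classical targets of heat shock factor HSF1, which binds inverted repeats of the letters GAA, and fly Hsp70 is the textbook case of a gene whose polymerase waits just downstream of the start before stress. Pol2-S5p is typical of polymerase near starts and also occurs at Polycomb-bound promoters, and Pol2-S7p of polymerase at active genes.

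As embryonic stem cells, the sample was checked on 10 stem cell markers, all of which had both polymerase marks at the start. The share over all protein-coding genes was 59.8%. Of 12 fibroblast markers, which feeder cells would bring in, Pol2-S7p was found at 1 (Twist1), against 60.4% of all genes. Pol2-S5p was found at 5 (Prrx1, Twist1, Twist2, Pdgfrb and Thy1), against 69.9%. Col1a1, Col1a2, Col3a1, Col6a3, Postn, Fap and Lum had neither. H3K27me3 lay at 3 stem cell markers (Sox2, Klf4 and Fgf4) and 8 fibroblast markers, against 37.6% of all genes. A part of feeder cells in the regions at the chaperone genes was not tested.

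The promoters at the center of the comparison are shown first, because heat shock factors act through them. For 5 genes the 250 bases before the start of the principal coding transcript are given 5′ to 3′ on the gene's strand, from the mm10 reference. Hspa1a, Hspa1b, Hspb1 and Hsp90ab1 were the 4 genes with H3K27me3 at the start, and Hspa5 is the endoplasmic reticulum gene to set beside them. Capitals mark exact matches to 2 facing heat shock units (GAANNTTC or TTCNNGAA, N being any base) and to CCAAT, which reads ATTGG on the opposite strand.
Hspa1a, chr17:34972157-34972406, minus strand: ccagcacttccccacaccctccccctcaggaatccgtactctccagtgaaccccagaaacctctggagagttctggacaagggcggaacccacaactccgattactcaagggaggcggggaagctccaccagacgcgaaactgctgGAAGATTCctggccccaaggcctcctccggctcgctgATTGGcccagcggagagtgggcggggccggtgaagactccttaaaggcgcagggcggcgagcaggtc
Hspa1b, chr17:34959239-34959488, minus strand: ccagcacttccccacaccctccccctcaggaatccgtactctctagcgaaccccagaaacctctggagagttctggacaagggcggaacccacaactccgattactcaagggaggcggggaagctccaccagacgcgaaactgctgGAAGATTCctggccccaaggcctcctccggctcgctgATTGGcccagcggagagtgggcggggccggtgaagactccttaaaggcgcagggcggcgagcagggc
Hspb1, chr5:135887669-135887918, plus strand: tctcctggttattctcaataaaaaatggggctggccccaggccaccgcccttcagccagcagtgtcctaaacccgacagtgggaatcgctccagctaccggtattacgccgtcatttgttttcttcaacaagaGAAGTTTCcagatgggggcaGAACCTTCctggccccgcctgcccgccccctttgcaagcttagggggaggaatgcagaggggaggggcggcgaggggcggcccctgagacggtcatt
Hsp90ab1, chr17:45573272-45573521, minus strand: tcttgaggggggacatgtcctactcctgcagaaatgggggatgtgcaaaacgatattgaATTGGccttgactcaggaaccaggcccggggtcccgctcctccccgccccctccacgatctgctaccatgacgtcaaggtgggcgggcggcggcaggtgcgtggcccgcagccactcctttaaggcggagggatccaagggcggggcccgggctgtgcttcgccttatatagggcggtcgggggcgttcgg
Hspa5, chr2:34771720-34771969, plus strand: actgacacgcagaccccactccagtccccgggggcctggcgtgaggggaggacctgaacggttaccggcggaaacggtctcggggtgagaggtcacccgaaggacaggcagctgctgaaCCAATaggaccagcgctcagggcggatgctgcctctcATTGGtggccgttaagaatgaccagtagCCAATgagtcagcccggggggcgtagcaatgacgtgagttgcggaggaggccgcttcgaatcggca
For Hspd1 and Hsph1, whose promoters overlap exons of other transcripts, 30 bases around the heat shock units are given.
Hspd1, chr1:55088053-55088082, minus strand: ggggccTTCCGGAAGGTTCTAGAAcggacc
Hsph1, chr5:149636351-149636380, minus strand: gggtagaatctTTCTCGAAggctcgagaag

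The stretches of Hspa1a and Hspa1b were near copies, with 247 of 250 bases identical (98.8%). Both had GAAGATTC at 104 to 97 bases before the start and an ATTGG at 67 to 63. The promoter of Hspb1 held 2 pairs of units, GAAGTTTC at 117 to 110 bases and GAACCTTC at 97 to 90 bases before the start, and no CCAAT. In Hspd1 the units overlapped into an unbroken array of 18 bases at 52 to 35 bases before the start, and Hsph1 had TTCTCGAA at 31 to 24 bases. Hsp90ab1 had GAACATTC only farther out, at 439 to 432 bases, and the 3 CCAAT matches of Hspa5 lay at 131 to 127, 94 to 90 and 66 to 62 bases. By contrast with the HSP70 pair, the promoters of Hsp90aa1 and Hsp90ab1 shared 47% of aligned positions, and those of Hspa1a and Hspa8 45.9%.

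Counted over both strands, GAANNTTC stood within 250 bases of the coding start in 4 of the 10 genes (Hspa1a, Hspa1b, Hspb1, Hspd1), and in 6.39% of all protein-coding promoters. TTCNNGAA stood in 2 (Hsph1, Hspd1), against 6.32% of all promoters, and an array of 3 units (GAA, TTC and GAA, each 2 bases apart) in Hspd1 alone, against 0.346%. The array of 3 units contains both pairs, so these counts overlap. CCAAT was found in 8 genes, all except Hsp90aa1 and Hspb1, against 33.6% of promoters, and the GC box GGGCGG in all 10, against 36.3%. TATAAA was found in none, against 11.5%, and the endoplasmic reticulum stress element (CCAAT and CCACG, 9 bases apart) in none, against 0.0912%. Shares of all promoters were counted at the start used for the marks, defined below. There Hspa8 also matched all 3 heat shock patterns, because its start lay 292 bases inside the gene, and Hsph1 lost its match, because its start lay deep inside the gene. The letters allowed no mismatch, whereas bound elements often differ from them, so a missing match says nothing about HSF1. Nor does it speak to TATA or endoplasmic reticulum stress elements spelled otherwise.

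The same promoters were rich in CpG. In the 2 kb around the coding start, the observed over expected CpG ratio ran from 0.625 in Hspb1 to 0.902 in Hsp90aa1, with a median of 0.806. All protein-coding genes were measured only at the start used for the marks, where their median was 0.393. The median of the 10 genes there was 0.806 as well. At the coding start, Hspb1 (0.625), Hsp90ab1 (0.636) and Hspa8 (0.709) were the lowest, and all 10 stood above 0.393. At the start used for the marks, Hsph1 had 0.35, below it. Genes with H3K27me3 were spread over this range: 0.812 in Hspa1a and 0.839 in Hspa1b, but 0.625 in Hspb1 and 0.636 in Hsp90ab1.

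In F123 cells, for which the labels name no stress, all 10 genes had both polymerase marks at the start, whether inducible or constitutive. A gene counted as marked when a region reached into the 2 kb window centered on its transcription start, for which the start with the longest Pol2-S5p cover was taken. Pol2-S5p was found at 10 of 10 starts and at 69.9% of all protein-coding genes, and Pol2-S7p at 10 of 10 and at 60.4%. Both together were found at 59.8% of all genes. H3K27me3 was found at 4 starts, against 37.6% of all genes. These were 3 of the 6 inducible genes (Hspa1a, Hspa1b, Hspb1) and 1 of the 4 constitutive ones (Hsp90ab1). Hspa1a and Hspa1b are near copies, so their marks may not be independent. Among the 13119 genes with both polymerase marks, H3K27me3 was present at 39.7%, so that 4 of 10 was close to the background. With regions scoring below the median of their list dropped, 4 of the 10 genes were again marked by all 3. The share of all genes was 8.02%, down from 23.7%. Another 4 of the 10 had both polymerase marks without H3K27me3, against 20.9% of all genes. Both shares are over all genes, not over those with both polymerase marks, and cannot be set beside 39.7%. Of the genes with both polymerase marks in this setting, 1760 had H3K27me3 and 4584 did not, against 4 and 4 of the 10 genes.

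In the promoter scheme of the study, starts with both polymerase marks and no H3K27me3 are called Active, and starts with all 3 marks Polycomb-Active (PRCa). A total of 6 genes were thus Active: Hsp90aa1, Hsph1 and Dnajb1 among the inducible ones and Hspa5, Hspa8 and Hspd1 among the constitutive ones. The genes with H3K27me3 made up the PRCa class. Active covered 36.1% of all protein-coding genes and PRCa 23.7%. None of the 10 was Inactive, a state without any of the marks that held 23.5% of genes, or Polycomb-repressed (PRCr, H3K27me3 and Pol2-S5p without Pol2-S7p; 7.69%). None had H3K27me3 only (6%), Pol2-S5p only (2.44%), Pol2-S7p only (0.41%) or H3K27me3 with Pol2-S7p (0.169%). With 6 and 4 genes in the classes, the split of 3 against 3 and 1 against 3 is a description, and the difference between the classes was not tested. The near copies Hspa1a and Hspa1b count as separate genes in it.

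**Figure D1:**
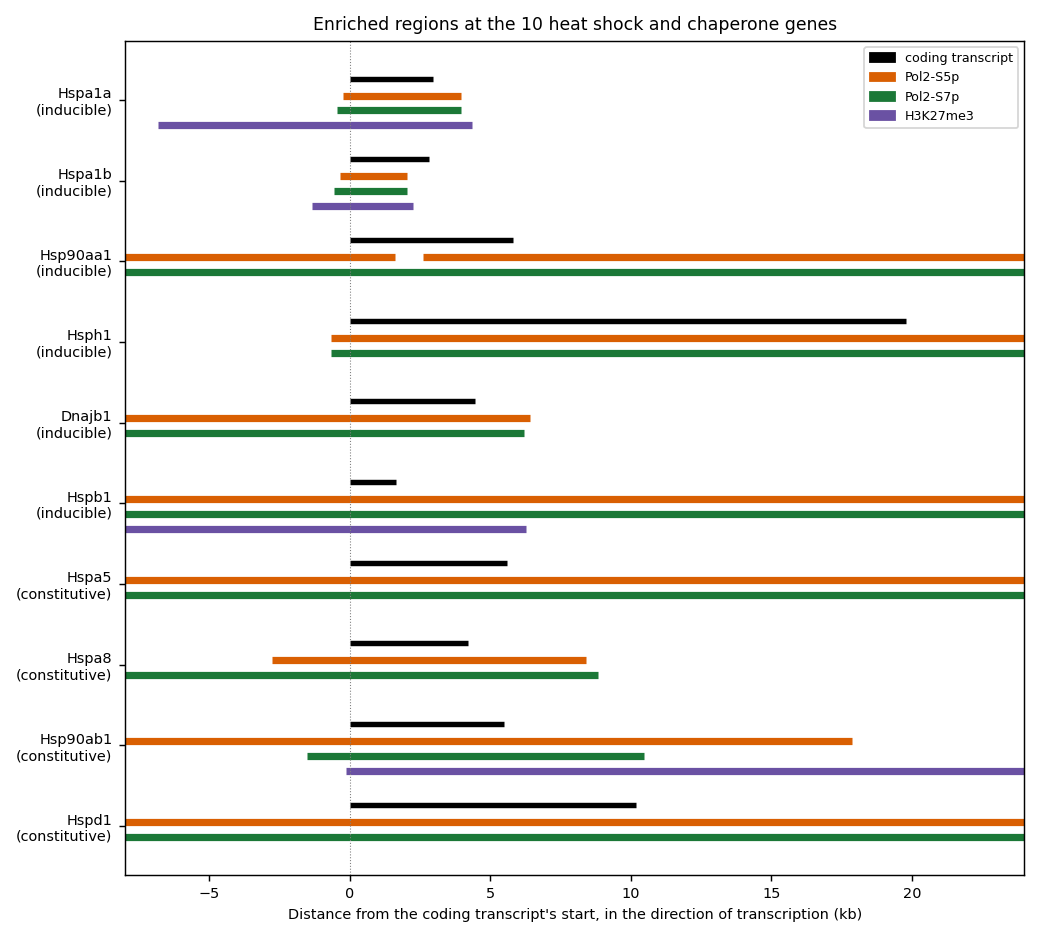
Regions of each mark around the coding start of the 10 genes, with distance in kb along the direction of transcription and the coding transcript as a black bar; bars that reach the edge of the plot go on beyond it. Only regions that reach the gene or its start or end window are drawn. Other regions in the plotted range are left out, such as an H3K27me3 region 7.95 kb from Dnajb1. Hspa1a and Hspa1b had the shortest polymerase regions. H3K27me3 regions ran from 3.6 kb at Hspa1b and 11.2 kb at Hspa1a to 44.0 kb at Hsp90ab1 and 99.6 kb at Hspb1. At the other 6 genes, the regions drawn were of polymerase alone.

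Hspa1a and Hspa1b encode the stress-inducible HSP70 of the cytosol and lie close together on chromosome 17, at chr17:34969190-34972156 and chr17:34956436-34959238, both on the minus strand. They are short genes, of 2967 and 2803 bp, and had the shortest polymerase regions of the 10. The Pol2-S5p region of Hspa1a was 4200 bp wide, from 243 bp before the start to 990 bp past the gene end, and its Pol2-S7p region was 4400 bp wide, from 443 bp before the start to the same end. At Hspa1b, Pol2-S5p covered 2400 bp from 361 bp before the start, and Pol2-S7p 2600 bp from 561 bp before it. Both regions of Hspa1b stopped 2038 bp into the gene and 764 bp short of its end. Thus the start side was alike in the copies, and the end side was not. Both polymerase regions of Hspa1a also held the start of Gm20481, a coding gene on the opposite strand, 722 bp from the Hspa1a end. The part of each gene in these regions cannot be told apart.

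H3K27me3 lay across both genes. At Hspa1b it formed a region of 3600 bp, from 1361 bp before the start to 564 bp short of the gene end. At Hspa1a it was 11200 bp wide, reached from 6843 bp before the start to 1390 bp past the end, and took in the starts of Gm20481, which overlaps Hspa1a on the opposite strand, and of Hspa1l, an HSP70 gene known for its expression in testis. Hspa1l starts 547 bp from Hspa1a in the opposite direction and was PRCa as well. Its window was covered to 34.9% by Pol2-S5p, 44.9% by Pol2-S7p and 100% by H3K27me3, and its polymerase region was the one at Hspa1a.

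**Figure D2:**
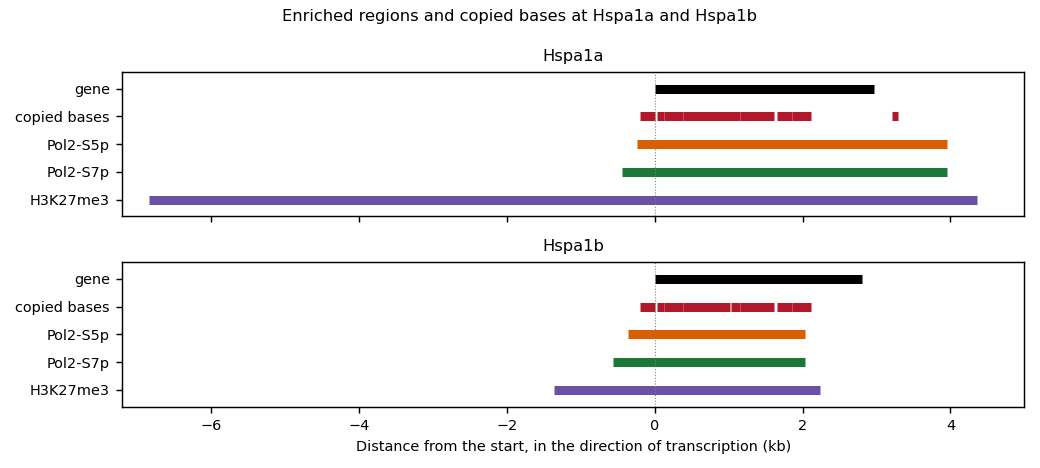
Regions at Hspa1a and Hspa1b, with distance in kb from the start along the direction of transcription; the bars marked copied bases show where words of 75 bases occur a further time in the genome. In Hspa1b both polymerase regions end 2038 bp into the gene, near the last copied base at 2110 bp, and in Hspa1a they run on past the gene end.

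The 2 genes are nearly identical over much of their length, which limits how reads of 75 bp could be assigned to either. Of the words of 75 bases in Hspa1a, 54.2% occurred elsewhere in the genome, 1524 of 2893 of them in Hspa1b. In Hspa1b 55.8% did. Copied bases ran with gaps from 203 bases before the start to 2110 bases after it in both genes, and 84 further copied bases lay past the end of Hspa1a. In their 2 kb windows 45.5% of words were copied, so values at the starts of Hspa1a and Hspa1b are uncertain as to the gene they came from. The last part of Hspa1a, covered by all 3 marks, and the last part of Hspa1b, covered by none of them over the final 564 bp, lay outside the copied stretch. A part of shared reads in the regions was not tested.

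Hspa8 encodes HSC70, the HSP70 that all cells carry, and lies at chr9:40800984-40810087 on the plus strand. Its Pol2-S5p region was 11200 bp wide, began 2784 bp before the coding start and held no other coding start. Pol2-S7p covered 44.8 kb, shared with Clmp upstream. Both ran past the end of the coding transcript, by 4.2 and 4.6 kb, respectively, and ended inside the longer gene record, 688 and 288 bp short of its end. The nearest H3K27me3 region was 61.1 kb away.

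Hspa5 encodes BiP, the HSP70 of the endoplasmic reticulum and a classical target of the unfolded protein response (chr2:34771970-34777547, plus strand). It lay within 58.6 kb of Pol2-S5p and 67.4 kb of Pol2-S7p together with Rabepk and Fbxw2. These regions began 8570 and 8770 bp before the start. Of the 6 genes without the Polycomb mark, it was the farthest from any H3K27me3 region, at 96.7 kb.

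Hsph1 encodes HSP105, of the HSP110 family, and is the longest of the genes at 22090 bp (chr5:149614287-149636376, minus strand). Pol2-S5p and Pol2-S7p began together 661 bp before the coding start, covered 50.0 and 51.4 kb, and held no other coding start. The start chosen by Pol2-S5p cover belonged to a retained-intron transcript inside the gene, at position 149621187, which is 15151 bp after the coding start. At the coding start, the window was covered to 83% by each polymerase mark, and the gene was Active from either start. An H3K27me3 region of 197000 bp lay 13.5 kb away.

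The HSP90 genes differed in H3K27me3. Hsp90aa1, the inducible form (chr12:110690605-110702728, minus strand), had no H3K27me3 region nearer than 88.4 kb. Its Pol2-S7p region of 186600 bp spanned the whole gene along with Dync1h1 and 1700001K19Rik. Pol2-S5p was split there into a region of 43.8 kb over the start and another of 111 kb over the end, with a gap from 1595 to 2596 bp after the coding start.

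Hsp90ab1, the form abundant in unstressed cells (chr17:45567775-45573271, minus strand), had all 3 marks. Pol2-S7p formed a compact region of 12.0 kb, and Pol2-S5p ran over 58.6 kb with Nfkbie, Slc35b2, Slc29a1 and Mymx. H3K27me3 covered 44.0 kb and began only 128 bp before the start, so that it lay over the gene and downstream, up to Tmem151b, and filled 56.4% of the start window. Slc35b2, whose start is 3901 bp from the end of Hsp90ab1, was PRCa too.

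Dnajb1 encodes HSP40, the J protein partner of inducible HSP70 (chr8:83608193-83612653, plus strand). Its polymerase regions of 55.0 and 55.4 kb began far upstream, over Tecr and Ndufb7, and stopped 1946 bp (Pol2-S5p) and 1746 bp (Pol2-S7p) after the gene end. The nearest H3K27me3 region was the closest found among the 6 genes without the mark, at 7.95 kb.

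Hspb1 encodes HSP27, a small heat shock protein, and is the shortest of the genes at 1645 bp (chr5:135887919-135889563, plus strand). It lay whole within all 3 marks: 110400 bp of Pol2-S5p with Ywhag, Ssc4d and Zp3, 63.8 kb of Pol2-S7p with Ywhag, and 99.6 kb of H3K27me3 with Srrm3 upstream. The H3K27me3 region ended 4636 bp past the gene, whereas Pol2-S5p ran on for 93.4 kb and Pol2-S7p for 46.8 kb. A processed pseudogene on chromosome 13, Hsp25-ps1, held 26.5% of its words of 75 bases and was touched by all 3 marks.

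Hspd1 encodes HSP60, the chaperonin of mitochondria, and shares its promoter with Hspe1, its partner HSP10, which starts 108 bp away in the opposite direction (chr1:55077835-55088243, minus strand). Both were Active. The polymerase regions had the same limits for both marks, 60.8 kb wide, and included Coq10b. The nearest H3K27me3 region was 42 kb away.

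Cover of the start windows was partial for polymerase at the HSP70 pair. These genes have 1 annotated transcript each, whereas the start of the others was chosen for its Pol2-S5p cover among 2 to 11 transcripts. Pol2-S5p covered 62.1% of the window at Hspa1a and 68% at Hspa1b, and the whole window at the other 8 genes, as at 40.7% of all protein-coding genes. Pol2-S7p covered 72.2% at Hspa1a, 78% at Hspa1b and the whole window at the other 8, as at 34.5% of all genes. At the coding start of Hsph1, however, each polymerase mark covered 83% of the window. H3K27me3, by contrast, covered the whole window at Hspa1a, Hspa1b and Hspb1, as at 26.1% of all genes, and 56.4% at Hsp90ab1.

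Over gene bodies, from 1 kb after the start to the gene end, polymerase regions were nearly continuous. Pol2-S5p covered at least 50% of all 10 bodies, against 40.5% of protein-coding genes, and Pol2-S7p likewise, against 36.4%. Pol2-S5p covered the whole body at 7 genes (32.2% of all genes), and less at Hspa1b (57.6%), Hsp90aa1 (79.1%) and Hspa8 (91.2%). Pol2-S7p covered it at 8 genes (30.9%), and less at Hspa1b (57.6%) and Hspa8 (96.3%). The shortfall at Hspa8 lay beyond its coding transcript, whose body was covered to 100% by both marks. Median body cover was 100% in either class for either polymerase mark, and 10.1% (Pol2-S5p) and 2.97% (Pol2-S7p) over all protein-coding genes.

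H3K27me3 covered at least 50% of 4 bodies (20% of all genes), the whole of Hspa1a, Hspb1 and Hsp90ab1 (14.4%) and 68.7% of Hspa1b. The 4 PRCa genes had H3K27me3 at the start window by definition, and both polymerase marks covered at least 50% of their bodies. Over genes of all states, 11.1% had this combination. The share among PRCa genes alone was not counted. At Hspa1a, Hspb1 and Hsp90ab1, each of the 3 marks covered the whole body, as at 5.02% of genes. The body of Hspb1 was only 546 bp long. The lists cannot tell whether the marks sat on the same DNA molecule, in the same cells or on the same parental chromosome.

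**Figure D3:**
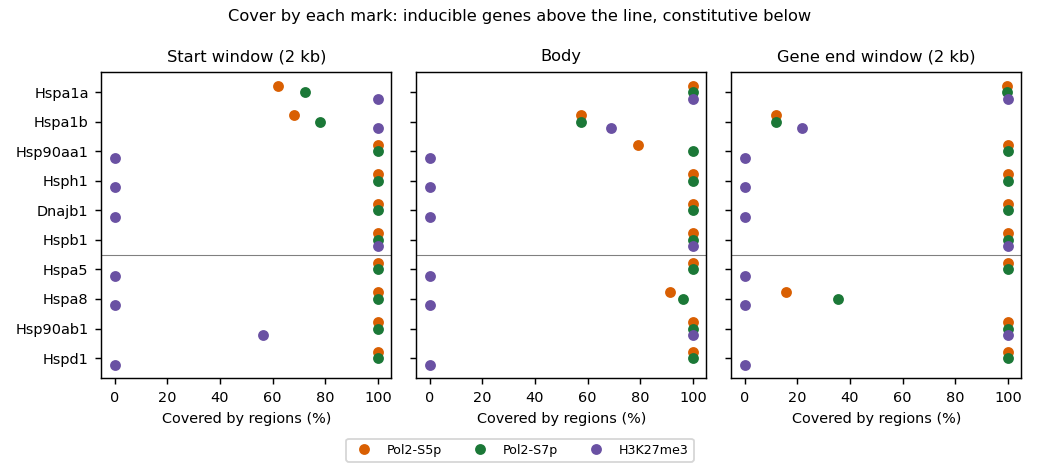
Share of the start window, body and gene end window covered by regions of each mark (%), for the 6 inducible genes above the line and the 4 constitutive genes below it; points of the same gene are set slightly apart in height. Hspa1a and Hspa1b have partial polymerase cover at the start, and Hspa1b and Hspa8 are the genes with low cover at the end.

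At the gene ends, a 2 kb window centered on the end of the gene record was reached by Pol2-S5p in 10 of 10 genes (50.3% of all genes) and by Pol2-S7p in 10 of 10 (46.4%). H3K27me3 reached it in the 4 PRCa genes (23.3%). Cover of this window was 99.5% for both polymerase marks at Hspa1a and 100% at 7 other genes. It was 11.8% for both marks at Hspa1b, and 15.7% (Pol2-S5p) and 35.6% (Pol2-S7p) at Hspa8, where the window on the end of the coding transcript was fully covered. Hspa1b was therefore the gene in which neither polymerase mark reached the end of the coding transcript. H3K27me3 covered 21.9% of its end window and 100% of that of Hspa1a, Hspb1 and Hsp90ab1, the 3 genes in which it lay over the end itself (19.2% of all genes).

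Pol2-S5p lay over the gene end itself in 8 genes (44.5% of all genes), and Pol2-S7p in the same 8 (41.1%). Beyond it, the Pol2-S5p region ran on for 0.99 kb at Hspa1a, 1.95 kb at Dnajb1, 12.4 kb at Hsp90ab1 and 25.6 kb at Hspd1. The runs were longer at Hsph1 (27.3 kb), Hspa5 (44.5 kb), Hspb1 (93.4 kb) and Hsp90aa1 (108 kb). For Pol2-S7p they ranged from 0.99 kb at Hspa1a to 159 kb at Hsp90aa1. The medians were 26.5 and 27.2 kb. Long runs took in neighboring genes at Hspa5, Hspb1, Hsp90aa1, Hsp90ab1 and Hspd1, where the part of each gene in the region cannot be told apart, whereas the run past Hsph1 held no other coding start.

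The regions also carried a score, whose unit is not stated in the sources used here. It was used only to rank regions within a list. At each start window, the highest-scoring region was taken.

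For Pol2-S5p, the scores of the inducible genes were 20.9 at Hspa1a, 35.4 at Hspa1b, 13.9 at Hsp90aa1, 10.2 at Hsph1, 16.3 at Dnajb1 and 15.2 at Hspb1. Those of the constitutive genes were 10.4 at Hspa5, 50.4 at Hspa8, 34.5 at Hsp90ab1 and 10.8 at Hspd1. The classes overlapped, with medians of 15.8 and 22.7. Hspa8, Hspa1b and Hsp90ab1 were the highest, at percentiles 95.7, 89.2 and 88.8 of the 15340 protein-coding start windows with a Pol2-S5p region. Hsph1, Hspa5 and Hspd1 were below the median of those windows, 12.3.

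For Pol2-S7p, the scores were 13.4 at Hspa1a, 24.7 at Hspa1b, 15.3 at Hsp90aa1, 11.5 at Hsph1, 17.2 at Dnajb1 and 20.3 at Hspb1. The constitutive genes had 15.5 at Hspa5, 31.9 at Hspa8, 94.0 at Hsp90ab1 and 14.3 at Hspd1. Hsp90ab1 was at percentile 99.6 of 13246 marked windows, above Hspa8 at 85.5 and Hspa1b at 78.4. The class medians were 16.2 (inducible) and 23.7 (constitutive), in overlapping ranges. Only Hspa1a and Hsph1 scored below the median of marked windows, 13.9.

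For H3K27me3, Hspa1b scored 63.7 and Hspa1a 33.7, at percentiles 99.8 and 99 of 8247 marked windows, whose median was 9.64. Hsp90ab1 scored 14.8 (percentile 79.9) and Hspb1 10.0 (percentile 53.2). The HSP70 pair thus stood near the top of the H3K27me3 list and also had Pol2-S5p scores above the upper quartile of marked windows, 19.8. At Hspa1b the H3K27me3 region, of 3600 bp, was close to the median width of that list, 3400 bp, so the high score came with an ordinary width. A score belongs to a whole region, so that of a wide region shared with other genes is not a value of the chaperone gene alone.

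**Figure D4:**
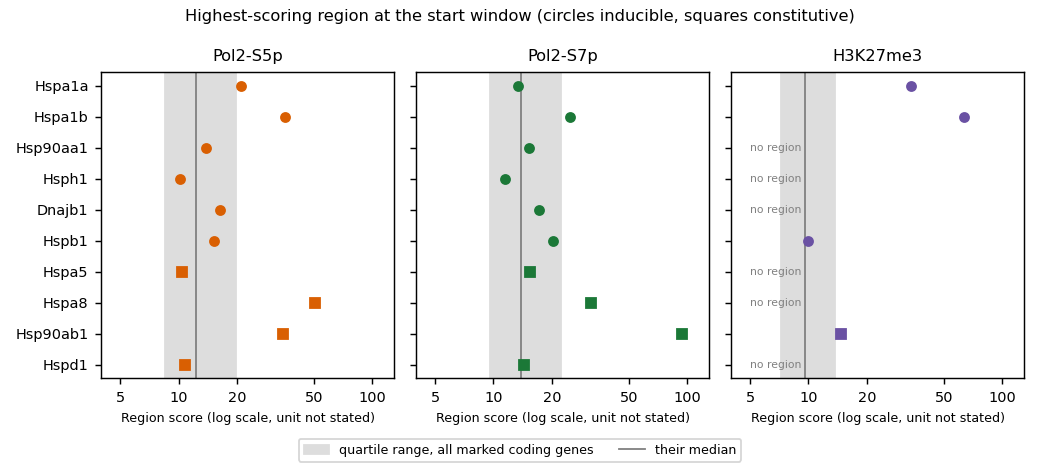
Score of the highest-scoring region at the start window of each gene, on a log axis in a unit that is not stated, with circles for inducible and squares for constitutive genes; the gray band is the quartile range and the line the median over marked protein-coding genes. Hsp90ab1 leads for Pol2-S7p at 94.0, Hspa8 for Pol2-S5p at 50.4 and Hspa1b for H3K27me3 at 63.7.

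Copies elsewhere in the genome also concerned other genes. For Hspa8, 29.6% of the words of 75 bases in the gene occurred elsewhere, at 9 places, all in processed pseudogenes, of which Pol2-S5p touched 3 and Pol2-S7p 4. For Hsp90aa1 the share was 27.5%, at 5 places, 3 of them in pseudogenes. It was 6.47% for Hspd1, 1.38% for Hspa5, 0.664% for Hsph1, 0.479% for Hsp90ab1 and 0 for Dnajb1. The start windows were less affected: 17.6% of words at Hspb1 and at most 1.45% at the other 7 genes outside the HSP70 pair.

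The genes were then set beside the rest of the chaperone network, a list of 119 other chaperones, cochaperones and heat shock factors. Of these, 79 were Active (66.4%) and 29 PRCa (24.4%), against 36.1% and 23.7% of all protein-coding genes. Another 3 were PRCr, 2 had H3K27me3 only, 2 Pol2-S5p only, 1 Pol2-S7p only and 3 were Inactive. Differences between lists were not tested.

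By family, the other chaperonin genes were all Active, 9 of 9, with the windows of Cct2 and Cct3, subunits of the cytosolic CCT ring, covered by both polymerase marks from end to end. Both further HSP90 genes were Active, Hsp90b1 of the endoplasmic reticulum and Trap1 of mitochondria. Of 25 cochaperones 21 were Active, among them Ahsa1 and Ahsa2, which stimulate the ATPase of HSP90. The 3 PRCa members of that group were Bag2, Bag3 and Bag5, which carry the BAG domain that binds HSP70, and Unc45b, a myosin chaperone of muscle, was PRCr. In the endoplasmic reticulum 10 of 14 were Active, such as the lectin chaperones Calr and Calr3, and 4 were PRCa, such as Clgn.

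Among the other HSP70 and HSP110 genes, 5 were Active and 5 PRCa. Hspa13 and Hspa14 were Active, with 60% and 50% of the window covered by Pol2-S5p. Of 9 small heat shock proteins, 3 were Active, among them Hspb6 and Hspb11, and 3 PRCa, among them the lens and muscle protein gene Cryab. The others were Hspb7, which was PRCr, and Cryaa and Hspb3, with H3K27me3 only. Hspb1 was therefore in a family where 6 of the other 9 genes had H3K27me3 at the start, against 37.6% of all genes. Among these, Hspb2 and Cryab had the same scores in all 3 lists (10.3, 9.77 and 21.1). Whether they lie in the same regions was not tested.

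Of 44 J proteins beside Dnajb1, 26 were Active, such as Dnaja1 and Dnaja2, and 12 PRCa, such as Dnaja4, Dnajb2 and Dnajb12. Dnajb8 was PRCr, Dnajc16 and Dnajc17 had Pol2-S5p only, Dnajb7 had Pol2-S7p only, and Dnajb13 and Dnajc5b were Inactive. Among 6 genes in the group of heat shock factors, Hsf1 itself was Active, with both polymerase marks over the whole window, as was Hsbp1, whose product binds HSF1. Within the group 2 genes were PRCa, and Hsf3 was Inactive.

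**Figure D5:**
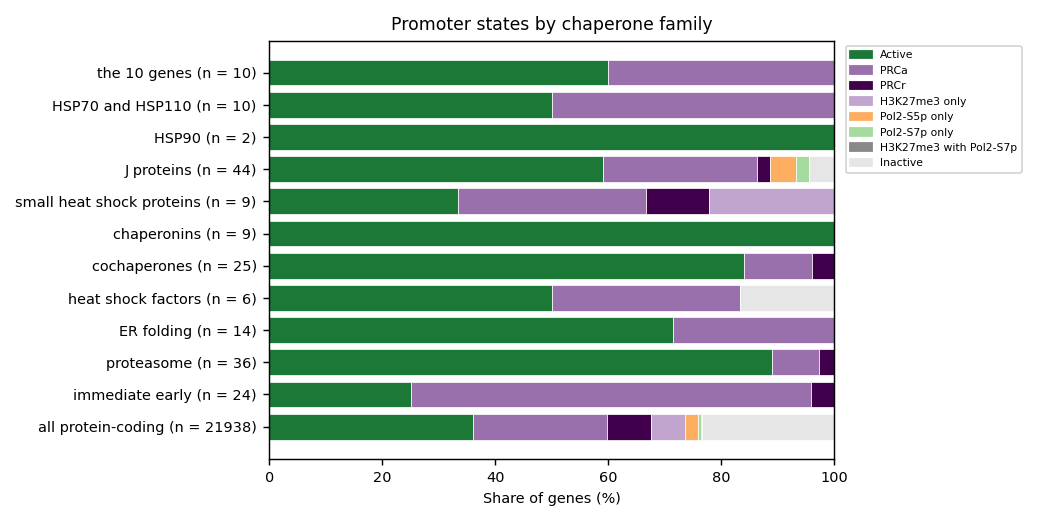
Share of genes in each promoter state (%), for the 10 genes, for families of other chaperones, for proteasome and immediate early genes and for all protein-coding genes, with the number of genes in each row. The other chaperonin genes and the other 2 HSP90 genes are all Active, the other HSP70 and HSP110 genes are Active and PRCa in equal shares, and immediate early genes are mostly PRCa at 70.8%.

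Proteasome genes, which serve protein breakdown in all cells, and immediate early genes, which like the inducible chaperones wait for a signal, were the lists set beside the 10 genes. Of 36 proteasome genes, 32 were Active, such as Psma1, Psma2 and Psma3, 3 were PRCa (Psma7, Psmb11, Psmb9) and 1 was PRCr (Psmb8). Of 24 immediate early genes, 6 were Active, such as Dusp1, Ier2 and Junb, 17 were PRCa (70.8%), such as Arc, Atf3 and Btg2, and Egr3 was PRCr. The 10 chaperone genes, at 60% Active and 40% PRCa, lay between these lists. So did the 6 inducible (50% and 50%) and the 4 constitutive ones (75% and 25%). All 10 had both polymerase marks. Of all protein-coding genes with both, 39.7% were PRCa, so 40% was close to that background. The order of the lists did not hold when only regions above the median score were counted. The 10 genes then had 4 Active and 4 PRCa, proteasome genes 36.1% and 0%, and immediate early genes 29.2% in each state.

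The promoter state of the 10 genes turned on wide regions. When H3K27me3 regions over 10 kb were left out, Hspa1b was the only gene to keep the mark, and Hspa1a, Hspb1 and Hsp90ab1 became Active. When polymerase regions over 10 kb were left out, only Hspa1a and Hspa1b kept polymerase marks. Windows of 1 and 5 kb, a minimum cover of 50% and other choices of the start left all 10 states as given.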

How the data were processed

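The authors, per the labels and their methods, mapped 75 bp single-end reads with Bowtie2 2.3.4.3 to an mm10 genome masked at strain variants, and ran the BCP peak finder (a Bayesian change-point model) on every library with default settings. No list of an input library was used here. The deposited width, in bp, is a multiple of 200 bp, and the deposited score has no unit stated in the sources used here.

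Genes were taken from GENCODE M21 on 21 chromosomes, and sequence from the GRCm38 (mm10) reference. Coordinates count from 1. Overlap counted from 1 bp. Where a gene had more than 1 start, that with the longest Pol2-S5p cover was taken, then Pol2-S7p cover, and ties went to the longest transcript and the first identifier. The study ranked starts by reads, also asked for reads above a threshold in the start window and excluded overlapping genes, none of which was done here. Bodies began 1 kb after the start. Words of 75 bases were matched exactly on both strands. Starts and ends of the principal coding transcripts were added after the data were seen.

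The 10 genes, their classes and all lists were chosen with earlier results of these data known. All 10 were named. Of the other chaperones, up to 8 genes per state other than Active and 2 Active genes per family were named by symbol. From the comparison lists up to 3 per state were named, and neighbors where they shared a region or started within 5 kb. Of the listed genes 1 (Cct6a) was not annotated as protein-coding and was not used. On simulated data, 1000 of 1000 promoter states and 100 of 100 covers were recovered. Python 3.11.15, NumPy 2.4.6, Biopython 1.88 and Matplotlib 3.10.9 were used.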

Additional observations from a re-analysis of the deposited data

How the results depend on the processing

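With 1 library per mark, no library could be left out. No paired analysis was possible because each mark had 1 library and no result came from a test. Of 132 alternative values, 104 stayed within 1.5 times the value given, and 28 did not, 8 for the 10 genes and 20 for the lists. Leaving out H3K27me3 regions over 10 kb brought the genes with H3K27me3 from 4 to 1 and the PRCa genes to 1. Leaving out polymerase regions over 10 kb gave 2 genes with Pol2-S5p, 2 with Pol2-S7p, 0 Active and 2 PRCa. Over all protein-coding genes, these settings gave 10.3% and 9.68% PRCa and 49.5% and 9.08% Active, from 23.7% and 36.1%. With only the better-scoring regions (above the median of the list), Hsph1 became Inactive and Hspa5 had Pol2-S7p only, which left 4 Active and 4 PRCa genes of the 10, while 20.9% of all genes were Active and 8.02% PRCa. At the principal coding start, chosen after seeing the data, 1 gene rather than 2 had the 3 heat shock units, since the start used for Hspa8 lies inside the gene. Within 500 bases, 1 gene had TATAAA (Hsph1, at the start used).

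For the lists, these regions gave 40.3% Active, 7.56% PRCa and 4.2% PRCr among the other chaperones, 36.1% Active with 0% PRCa and 0% PRCr among proteasome genes, 29.2% PRCa and 16.7% PRCr among immediate early genes, and 0% PRCr among fibroblast markers. Without H3K27me3 regions over 10 kb, the other chaperones had 9.24% PRCa and 0% PRCr, proteasome genes 2.78% and 0%, immediate early genes 79.2% Active, 16.7% PRCa and 0% PRCr, and fibroblast markers 8.33% Active, 0% PRCa and 0% PRCr. Without genes whose start windows overlap, proteasome genes had 3.33% PRCa. The cause of these moves lies in fewer regions or genes being counted. The missing depth limits the values of every list, and whether it does so equally was not tested. A gene without a region may carry a mark below what the peak finder called.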
